A study of Mus musculus with 6 samples.

Results

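The miRNAs carried by mouse oligodendrocytes in primary culture were described from 3 small RNA libraries of whole cells, out of 6 libraries in the series. Oligodendrocytes are the glia that wrap axons of the central nervous system in myelin. Per the labels, their strain was C57BL/6N. The embryos were taken on embryonic day 14, the culture medium was Sato with 1% of horse serum, and whole cells were sampled on day 6 in vitro. The protocol text, which is the same for all samples, also describes a wash in PBS and a 24 h collection of vesicles in serum-free Sato medium with the supplement B27, but does not say whether the sampled cells came from those dishes. No genotype or agent separates the 3 samples, and the labels do not say whether they were separate cultures, so their spread may be technical. All 3 are mixtures of whatever cells the dish held. In such bulk RNA, fewer cells of a type and less RNA per cell cannot be told apart. The vesicle libraries were not used here.

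A miRNA is cut from a hairpin precursor that can yield a product from each side, the 5p arm and the 3p arm. The product that is loaded into an Argonaute protein guides it to messenger RNAs, mainly by pairing of its seed, bases 2 to 8 counted from its 5′ end. miRNAs with the same seed therefore share many targets and are counted as a family. In the oligodendrocyte lineage, miR-219 and miR-338 are known to be induced as precursors stop dividing and to repress factors that hold them immature. miR-9 is characteristic of neural progenitors and neural tissue at large, and miR-124 of neurons.

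The table of each library listed 1906 mature miRNAs. At least 10 reads in every one of the 3 libraries were found for 250 of them, and these 250 make up the repertoire described here. They held between 99.1% and 99.2% of all counts. A further 503 miRNAs had at least 1 read in some library but missed the minimum, and 1153 had none in all 3. Total counts were 156189, 126910 and 202358 in Cells replicates 1, 2 and 3, the order in which values per library are given throughout. Levels are shares of the library total, as a percent or as counts per 1000000 counts of the library (CPM). A single read was worth 6.40, 7.88 and 4.94 CPM. A miRNA with 10 reads had a 95% exact binomial (Clopper-Pearson) interval of 37.8 to 145 CPM in the smallest library and 23.7 to 90.9 CPM in the largest. A count of 0 allowed up to 3 reads, which is 14.8 to 23.6 CPM. These intervals and limits cover counting error only. How far ligation and amplification favoured some sequences was not measured, so an order of shares is an order of counts.

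The limit of 10 reads cut through a continuum. Just inside it lay miR-124-5p (10, 13 and 13 reads), miR-664-5p (13, 10 and 15) and miR-485-3p (16, 10 and 14). Just outside were miR-181b-1-3p (20, 9 and 22 reads), miR-344f-3p (21, 9 and 18) and miR-770-3p (19, 9 and 15). There were 20 members with a lowest count of 10 to 12 reads, and 17 miRNAs missed the limit with a lowest count of 7 to 9.

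Cells replicates 1 and 2 were the least alike, and replicate 1 stood somewhat apart from both other libraries. Across the 250 miRNAs, which share libraries and depth, log2 shares of replicates 2 and 3 had a Pearson r of 0.985, against 0.960 and 0.973 for replicate 1 with each of them. The miRNAs that differed most are named further on, and values are given per library so that each replicate can be read separately.

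Sequences are printed for the miRNAs that dominated the counts or mark the lineage, because shared seeds decide how the repertoire divides into families. They come from RefSeq on GRCm38.p6, which held 223 of the 250, and the seed is in capitals. The first set is the let-7 family, whose 9 members have the same seed and differ from let-7a-5p at 1 to 4 of 22 bases.
let-7f-5p: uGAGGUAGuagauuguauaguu
let-7c-5p: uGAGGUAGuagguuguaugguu
let-7b-5p: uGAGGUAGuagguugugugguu
let-7i-5p: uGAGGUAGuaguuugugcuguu
let-7a-5p: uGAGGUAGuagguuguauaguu
let-7g-5p: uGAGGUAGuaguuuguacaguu
let-7d-5p: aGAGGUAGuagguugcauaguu
let-7e-5p: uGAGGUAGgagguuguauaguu
miR-98-5p: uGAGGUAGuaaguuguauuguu

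The next set gives the other leading miRNAs and their seed relatives, to show which pairs a read counter must tell apart by few bases.
miR-9-5p: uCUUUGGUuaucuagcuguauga
miR-9-3p: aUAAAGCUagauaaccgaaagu
miR-181a-5p: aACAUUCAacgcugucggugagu
miR-181b-5p: aACAUUCAuugcugucgguggguu
miR-26a-5p: uUCAAGUAauccaggauaggcu
miR-26b-5p: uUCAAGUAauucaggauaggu
miR-21a-5p: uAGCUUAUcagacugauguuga
miR-128-3p: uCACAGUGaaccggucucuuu
miR-125b-5p: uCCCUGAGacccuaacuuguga
miR-125a-5p: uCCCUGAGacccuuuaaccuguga
miR-99a-5p: aACCCGUAgauccgaucuugug
miR-100-5p: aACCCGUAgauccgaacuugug
miR-30a-5p: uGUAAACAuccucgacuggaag
miR-30e-5p: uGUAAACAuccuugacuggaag
miR-30c-5p: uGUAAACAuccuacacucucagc

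The third set holds some miRNAs of the oligodendrocyte and neuron lists below the 20 most abundant. Larger parts of those lists came from miR-128-3p, printed above, and from miR-219a-2-3p, which had no sequence in the source. miR-124-3p had none either.
miR-219a-5p: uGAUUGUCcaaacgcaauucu
miR-338-5p: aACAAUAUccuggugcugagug
miR-338-3p: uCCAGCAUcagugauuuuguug
miR-138-5p: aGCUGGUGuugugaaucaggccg
miR-132-3p: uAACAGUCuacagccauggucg

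A few miRNAs made up most of the repertoire, and miR-9-5p stood alone at its head. It held 19.3%, 18.0% and 16.6% of counts (mean 17.95% ± 1.35 SD, n = 3), and its 95% exact binomial intervals, 19.1 to 19.5%, 17.8 to 18.2% and 16.4 to 16.8%, did not overlap between libraries. The libraries thus differed in miR-9-5p by more than counting error, and it ranked first in each. let-7f-5p, next in order, had 3.41 ± 0.22 times fewer counts. In single libraries, 8 to 10 miRNAs held 50% of counts and 60 to 65 held 90%. The 20 most abundant by mean share together reached 70.3%.

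**Figure D1:**
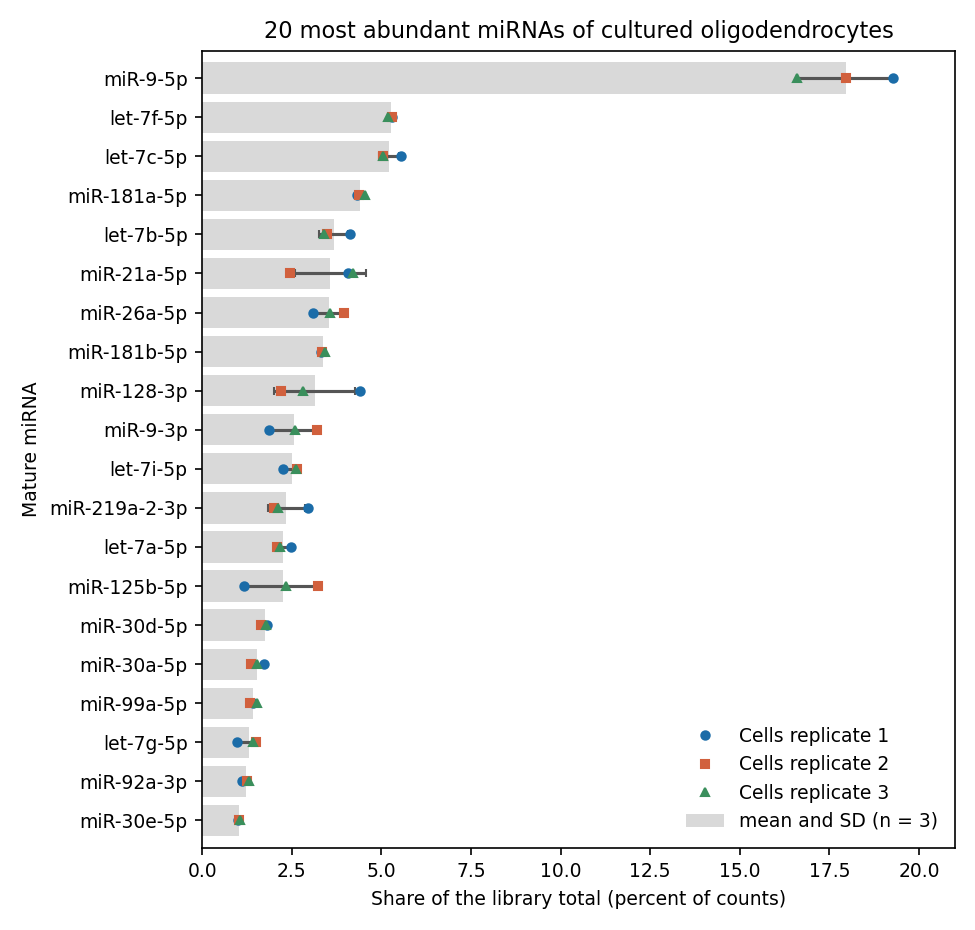
Share of the library total (percent of counts, x axis) of the 20 most abundant mature miRNAs. Bars are means, lines the SD over 3 libraries, and points the libraries; miR-9-5p lies at 16.6 to 19.3% and all others at 5.54% or less.

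Below miR-9-5p, the order was clear at only a few places. let-7f-5p (5.30%, 5.29% and 5.195%) and let-7c-5p (5.54%, 5.04% and 5.06%) overlapped, and both lay above miR-181a-5p (4.33%, 4.37% and 4.55%) in every library. miR-181a-5p, a brain-enriched miRNA, was in turn above let-7b-5p (4.14%, 3.48% and 3.39%) in every library. From there the ranges of most neighbours ran into each other. miR-21a-5p, broadly expressed and raised in reactive glia, had 4.08%, 2.45% and 4.21%, with replicate 2 low. miR-26a-5p had 3.09%, 3.96% and 3.57%, and miR-181b-5p a narrow 3.31%, 3.36% and 3.43%. miR-128-3p, a miRNA known from neurons, was 4th in replicate 1 with 4.39% and 12th and 9th in the others with 2.21% and 2.80%.

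Ranks 10 to 20 were filled by the other arm of the leading hairpin, miR-9-3p (2.56% ± 0.67), by let-7i-5p (2.50% ± 0.21), miR-219a-2-3p (2.35% ± 0.52), let-7a-5p (2.25% ± 0.20), miR-125b-5p (2.24% ± 1.03), miR-30d-5p (1.75% ± 0.09), miR-30a-5p (1.54% ± 0.19), miR-99a-5p (1.43% ± 0.11), let-7g-5p (1.29% ± 0.29), miR-92a-3p (1.23% ± 0.11) and miR-30e-5p (1.03% ± 0.03). Of 20 neighbouring pairs from rank 1 to rank 21, the ranges of 16 overlapped. The lowest-ranked pair whose ranges did not overlap was miR-92a-3p (1.11 to 1.32%) and miR-30e-5p (1.01 to 1.06%). Only 5 pairs were in the same order in all 3 libraries. The set was steadier than the order, since 17 miRNAs were among the 20 most abundant of each library.

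**Figure D2:**
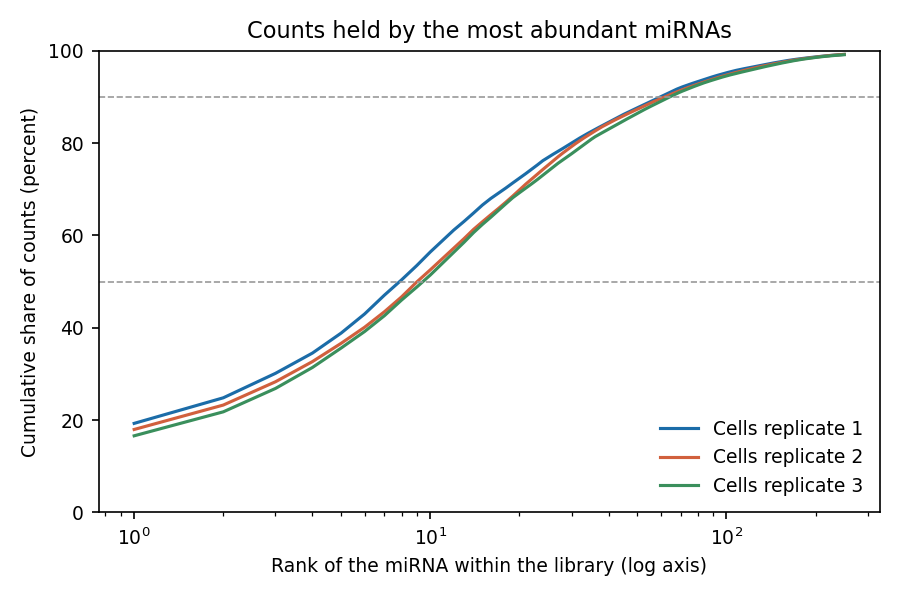
Cumulative share of counts (percent, y axis) against the rank of the miRNA within its library (log x axis), 1 line per library. The lines cross 50% at rank 8 to 10 and 90% at rank 60 to 65, with replicate 1 uppermost over the first ranks.

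By seed, the repertoire was led by let-7 and not by miR-9-5p. The 223 miRNAs with a sequence carried 174 seeds, of which 148 had 1 member here and 26 had 2 or more. The 27 members without a sequence were left out, so shared seeds may be undercounted. miR-23b-3p (0.26% ± 0.06), for example, could not be set beside miR-23a-3p. These 26 shared seeds covered 75 miRNAs and 51.8% ± 2.86 of counts, and the 8 largest alone 46.3% ± 2.13. let-7, which is known to rise as cells leave the progenitor state, held 21.7%, 21.3% and 21.1% (21.4% ± 0.33, n = 3). The libraries thus differed by a factor of only 1.03 for the family, while single members were less even: let-7g-5p had 0.96%, 1.51% and 1.41%. let-7f-5p, its leading member, supplied 24.6% of the family, so no single member dominated it. Since let-7c-5p, let-7e-5p and let-7f-5p each differ from let-7a-5p at 1 base, reads may be shared between them, which would leave the family sum as it is. Reads lost because they have several matches would lower it, and the rule for such reads was not given.

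The miR-181 seed was the next shared one at 8.13% ± 0.18, with 54.3% of it from miR-181a-5p and a further part from miR-181b-5p and miR-181d-5p (0.25% ± 0.01). miR-181a-5p exceeded miR-181b-5p by a nearly fixed 1.31, 1.30 and 1.33 times. miR-26 held 3.94% ± 0.53, of which miR-26a-5p gave 89.8%, with miR-26b-5p at 0.40% ± 0.09. The miR-30 seed, among miRNAs with a sequence, held 3.33% ± 0.20 (miR-30a-5p, miR-30e-5p and miR-30c-5p at 0.65% ± 0.35). Adding miR-30d-5p and miR-30b-5p by name, all 5 miR-30 5p arms held 5.10% ± 0.16, more than the miR-26 seed. miR-99a-5p, miR-99b-5p and miR-100-5p formed an even family at 3.28% ± 0.20, with 1.00% ± 0.10 for miR-99b-5p and 0.85% ± 0.06 for miR-100-5p.

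The miR-125 seed was the uneven exception among the 8 largest. miR-125b-5p, miR-125a-5p and the minor miR-351-5p (0.050% ± 0.014) together held 1.61%, 4.67% and 3.31%, a 2.90-fold range, with replicate 1 lowest. The miR-25 and miR-92 seed held 1.84% ± 0.12 (miR-92a-3p, miR-25-3p at 0.39% ± 0.01 and miR-92b-3p at 0.21% ± 0.01). The miR-17 seed, found in clusters that drive proliferation, held 1.21% ± 0.20, led by miR-93-5p (0.55% ± 0.04), then miR-20a-5p (0.31% ± 0.07) and miR-106b-5p. Large shares also came from miRNAs alone with their seed, namely miR-9-5p, miR-21a-5p, miR-128-3p and miR-9-3p.

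Some sequence features of the repertoire were not used to choose it. A first base of U, which Argonaute proteins are known to favour, was found in 105 of the 223 miRNAs with a sequence (47.1%), and in 653 of 1622 listed miRNAs with a sequence (40.3%). Weighted by counts, miRNAs that start with U held 68.2% ± 0.26 of the library, those with A 17.4% ± 0.96, with C 4.12% ± 0.20 and with G 1.58% ± 0.02. These 223 miRNAs held 91.3% ± 0.71 of counts, and the remaining counts had no first base assigned. Lengths of 21 to 23 bases were found in 203 of the 223, and 119 had 22. By arm, 117 members were 5p products, 121 were 3p products and 12 had no arm in their name. The 5p products were 46.8% of members but held 76.3% ± 0.69 of counts. Both shares include miR-9-5p and the let-7 family, which are 5p arms and, apart from let-7d-5p, start with U.

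Lineage miRNAs were read from 17 lists. The counts per list stand beside 250 of all 1906 listed miRNAs in the repertoire and 1153 of 1906 at 0 in all libraries. The oligodendrocyte list of miRNAs that promote differentiation had 7 of 13 annotated members in the repertoire, 3 below the minimum and 3 at 0 in all libraries. Its sum was 4.41%, 3.47% and 3.73% of counts. miR-219a-2-3p supplied most of it, with 4605, 2546 and 4258 reads (2.95%, 2.01% and 2.10%), so replicate 1 was highest. Its partner arm miR-219a-5p had 570, 405 and 724 reads (0.36%, 0.32% and 0.36%) and was nearly level. miR-138-5p, known from the early phase of differentiation, held 0.38%, 0.47% and 0.53%, with replicate 1 lowest. miR-338-5p held 0.44%, 0.37% and 0.40% and miR-338-3p 0.21%, 0.23% and 0.25%.

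The members from miR-219a, miR-338 and miR-138, which are known from the labelled cell type, were thus present in all libraries. Together they held 3.82% ± 0.49 of counts, most of it from miR-219a-2-3p. miR-23a-3p, which represses the lamin B1 gene, stood far lower at 459 ± 113 CPM. miR-32-5p had 2, 1 and 2 reads, and miR-219a-1-3p 5, 2 and 4. miR-219b-5p, miR-219b-3p and miR-297c-5p had none. Reads of the 3p arm of miR-219a therefore came almost wholly from the entry of copy 2.

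In the list of miRNAs reported to restrain oligodendrocyte differentiation, 2 of 5 were in the repertoire. miR-27a-3p had 67, 28 and 90 reads and miR-212-3p 16, 22 and 36. miR-145a-5p (5, 2 and 5 reads), miR-125a-3p (2, 2 and 7) and miR-214-3p (0, 0 and 1) were below the minimum. The summed list stood at 425 to 687 CPM, against 34702 to 44100 CPM for the list that promotes differentiation. Both sums depend on which miRNAs were listed. miR-27b-3p (6036 ± 850 CPM) and miR-132-3p (4014 ± 380 CPM) have the seeds of miR-27a-3p and miR-212-3p but were not in the restraining list. The difference between the sums is thus no measure of restraining against promoting activity.

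**Figure D3:**
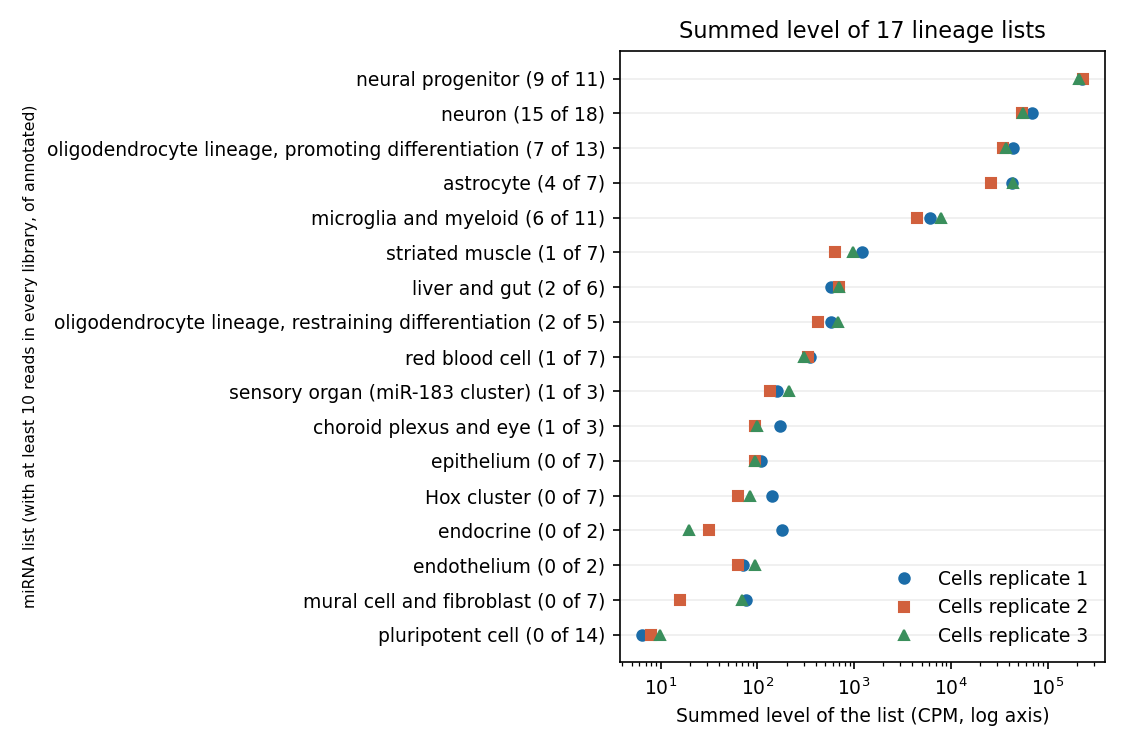
Summed level of 17 miRNA lists (CPM, log x axis), with 1 point per library and, in brackets, the number of annotated members with at least 10 reads in every library. The neuron, neural progenitor and astrocyte lists and the list promoting oligodendrocyte differentiation lie at 26168 CPM or more in all libraries, and the 6 lists without a member at 179 CPM or less.

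Markers of other neural cells were abundant in the same libraries. The neuron list had 15 of 18 members in the repertoire and none at 0, with sums of 6.96%, 5.40% and 5.59%. miR-128-3p led the list in every library, with 4.39%, 2.21% and 2.80% of counts. miR-124-3p, the defining miRNA of neurons, had 947, 1651 and 1879 reads (0.61%, 1.30% and 0.93%), lowest in replicate 1, where miR-128-3p was highest. miR-218-5p, known from motor neurons and other neurons, held 0.99%, 0.87% and 0.93%, and miR-132-3p, induced by neuronal activity, 0.39%, 0.44% and 0.37%. Each of the last pair was steady across libraries. miR-129-5p (2253 ± 474 CPM), miR-137-3p (844 ± 58.8 CPM) and miR-488-3p (486 ± 45.0 CPM) were also present, while miR-551b-3p and miR-873a-5p had at most 4 reads in a library. The part that neurons or their precursors had in these levels was not tested.

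The neural progenitor list had 9 of 11 members in the repertoire and held 22.8%, 23.1% and 21.2% of counts, almost all of it miR-9-5p and miR-9-3p. The 9 miRNAs of the list other than miR-9, led by miR-93-5p and miR-25-3p, held 1.61%, 1.88% and 2.02%. miR-92b-5p and miR-301b-3p fell below the minimum. Of the astrocyte list, 4 of 7 passed, with sums of 4.33%, 2.62% and 4.43%. miR-21a-5p was most of that sum, followed by miR-29a-3p (1275 ± 266 CPM), miR-143-3p (151, 43 and 81 reads) and miR-29b-3p (20, 13 and 31 reads). miR-21a-5p is made by many cell types, so the sum does not mark astrocytes alone. miR-449a-5p went from 42 reads in replicate 1 to 9 and 0, the widest range of the list.

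The microglia and myeloid list had 6 of 11 members in the repertoire, with sums of 6070, 4428 and 7892 CPM. miR-342-3p, not restricted to myeloid cells, led with 393, 345 and 647 reads and ranged 1.27-fold in share. miR-146a-5p, induced by inflammatory signals, had 433, 132 and 637 reads and was lowest in replicate 2 (0.28%, 0.10% and 0.31%). The rest of the list was low or absent. miR-142a-3p (39, 29 and 100 reads) and miR-155-5p (32, 22 and 115) passed and were highest in replicate 3. miR-142a-5p (26, 13 and 41) and miR-342-5p (16, 15 and 24) passed too. miR-223-3p (5, 6 and 31 reads), miR-223-5p (3, 0 and 1) and miR-511-3p (1, 0 and 1) missed the minimum, and miR-150-5p and miR-511-5p had none.

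Lists of red blood cells, liver and gut, striated muscle, sensory organs, and choroid plexus and eye had 1 or 2 members each in the repertoire. The red blood cell list had 1 of 7 members in the repertoire, miR-486a-5p (38, 22 and 40 reads). miR-486b-5p had 12, 8 and 16 reads, miR-451a 2, 7 and 3, and miR-486a-3p 3, 4 and 2. In the liver and gut list 2 of 6 passed, miR-192-5p (54, 45 and 101 reads) and miR-194-5p (26, 37 and 34), whereas miR-122-5p, the main miRNA of hepatocytes, had 7, 6 and 5 and miR-215-5p 3, 0 and 0.

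The striated muscle list was also led by a single miRNA. miR-206-3p, known from skeletal muscle, had 162, 62 and 183 reads (810 ± 286 CPM), while its relatives miR-1a-3p (13, 8 and 10), miR-133a-3p (10, 8 and 3), miR-133b-3p (1, 1 and 0) and miR-499-5p (2, 1 and 1) stayed below the minimum and miR-208a-3p and miR-208b-3p were at 0. miR-182-5p (17, 10 and 25 reads) passed from the miR-183 cluster of sensory organs, where miR-183-5p had 8, 7 and 18 and miR-96-5p none. miR-204-5p (27, 12 and 17 reads), a miRNA of choroid plexus and eye, passed, and miR-204-3p (0, 0 and 1) and miR-211-5p (0, 0 and 2) did not.

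6 lists had no member in the repertoire: endothelium, mural cells and fibroblasts, epithelium, endocrine cells, the Hox clusters and pluripotent cells. For mural cells and fibroblasts this depends on how the lists were drawn up. miR-143-3p, the main product of a hairpin known from mural cells and fibroblasts, was counted with the astrocyte list and passed with 151, 43 and 81 reads (569 ± 346 CPM). miR-145a-5p and miR-214-3p, also known from such cells, were counted with the list that restrains oligodendrocyte differentiation and did not pass. The mural list itself held miR-199a, miR-199b and the other arms of those 3 hairpins. The 39 miRNAs of all 6 lists together had 91, 35 and 75 reads, and 18 of the 39 had none. The endothelial miR-126a-3p (6, 4 and 11 reads) and miR-126a-5p (5, 4 and 8) were seen in every library, as was the mesenchymal miR-199a-3p (6, 1 and 8). miR-199b-3p had 3, 1 and 5 reads, miR-143-5p 2, 0 and 0, and miR-199a-5p 1, 0 and 0. Among epithelial miRNAs, miR-203-3p had 8, 9 and 13 reads, miR-200c-3p 3, 1 and 3, miR-200b-3p 4, 1 and 1, and miR-429-3p 0, 1 and 1. miR-375-3p of endocrine cells had 28, 4 and 4 reads, so its level rested on replicate 1.

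Of the Hox clusters, whose miRNAs are active in hindbrain, spinal cord and trunk, miR-10a-5p had 14, 4 and 10 reads and miR-10b-5p 7, 3 and 7. miR-196b-5p had 0, 1 and 0 and miR-196a-5p 1, 0 and 0. The pluripotency list had 11 of 14 miRNAs at 0 in all libraries, and its reads were 1 of miR-302a-3p, 2 of miR-302b-3p and 1 of miR-302d-3p over the 3 libraries. At this depth a miRNA with no read could still hold up to 14.8 to 23.6 CPM.

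The imprinted Dlk1-Dio3 locus, a large miRNA cluster active in neurons and embryonic tissue, contributed many miRNAs at low levels. Of 108 mature miRNAs listed for its 57 hairpins, 28 were in the repertoire and 33 were at 0 in all libraries. Over all 1906 listed miRNAs, these counts were 250 and 1153. The whole locus held 1.02%, 1.03% and 0.87% of counts. miR-434-3p led it at 1124 ± 130 CPM, followed by miR-127-3p (883 ± 145 CPM), miR-541-5p (690 ± 97.0 CPM) and miR-379-5p (628 ± 68.6 CPM). These 4 were chosen after their values were seen. The locus as a whole had an SD of 0.092 percentage points and a mean of 0.98%, so all its miRNAs together were counted about as often as miR-30e-5p.

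Most hairpins were counted almost entirely on 1 arm. With at least 1000 reads over both arms in the 3 libraries together, 61 hairpins could be described, and reads of genomic copies with the same number and letter were summed. The 5p arm was the larger in 41 and the 3p arm in 20, and in all 61 the larger arm was the same in the 3 libraries. The rarer arm held under 1% of reads in 33, 1 to 10% in 17 and 10% or more in 11, with a median of 0.83%. Without the minimum of 1000 reads, among all hairpins with both arms annotated, 52 had both arms in the repertoire.

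The 10 most abundant hairpins included both extremes. On the 5p arm were let-7f (99.8% ± 0.11), let-7c (99.2% ± 0.09), let-7b (99.7% ± 0.06), miR-181a (97.5% ± 0.34), miR-181b (99.7% ± 0.09), miR-21a (99.95% ± 0.01) and miR-26a (99.94% ± 0.02), with SDs over 3 libraries. miR-128 used the 3p arm, with 1, 1 and 4 reads on the 5p arm against 6862, 2807 and 5675. miR-9 kept a sizeable second arm, with 91.1%, 84.8% and 86.5% of its reads on 5p. For miR-219a the 5p arm held 11.0%, 13.7% and 14.5%, and miR-219a-2-3p exceeded miR-219a-5p by 8.08, 6.29 and 5.88 times. Only the 5p arm is counted from both genomic copies of miR-219a under 1 name.

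**Figure D4:**
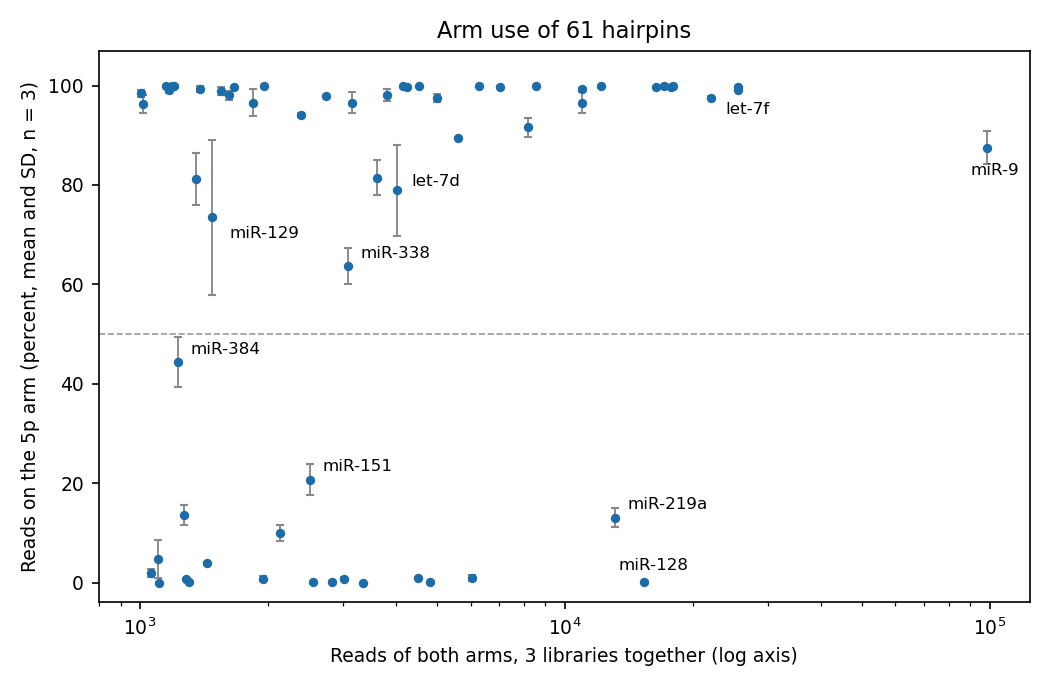
Percent of a hairpin's reads on the 5p arm (y axis, mean and SD over 3 libraries) against its reads on both arms (log x axis), for 61 hairpins. Most lie near 0 or 100, and miR-384, miR-338, miR-129, let-7d and miR-151 lie nearest to 50.

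Both arms were used at comparable levels by few hairpins. miR-384 was the most balanced at 49.2%, 39.3% and 44.6% on the 5p arm. miR-338, the oligodendrocyte hairpin, had 67.8%, 61.3% and 61.8% on 5p, so miR-338-5p exceeded miR-338-3p by 2.11, 1.58 and 1.62 times. miR-151 had 18.2%, 24.1% and 19.8% on 5p. For let-7d the 5p arm held 68.7%, 86.1% and 81.9%, as its 3p arm ranged from 1080 to 2753 CPM, highest in replicate 1, and its 5p arm from 6031 to 6745 CPM. The arms of miR-129 also moved separately. Its 3p arms had 288, 1269 and 894 CPM against 2798, 1930 and 2031 CPM for 5p, which put 90.7%, 60.3% and 69.4% of reads on 5p, the largest SD of all 61 (15.6).

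At the other end, 5 hairpins had no read of the rarer arm in any library. All reads were on the 5p arm for miR-218, miR-146a and miR-181d and on the 3p arm for miR-101b and miR-344. With 4528 reads of miR-218, 3 reads would be 0.066%, and with 1107 reads of miR-344 they would be 0.27%.

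Hairpins that are neighbours in the genome, and may come from a single primary transcript, differed in level. Gene order was read from RefSeq on GRCm38.p6, which is not the build of the files. miR-132-3p exceeded miR-212-3p, its neighbour, by 38.4, 25.5 and 20.7 times. In the miR-17 cluster, mean shares of the 6 members spanned 41.6-fold, from miR-18a-5p (0.030% ± 0.006) to miR-92a-3p, although miR-92a-3p and miR-19b-3p have a further genomic copy. miR-29a-3p exceeded miR-29b-3p by 8.65, 11.1 and 10.3 times. miR-221-3p and miR-222-3p were closest together, with means that differed 1.24-fold. In the miR-106b cluster, the means of miR-93-5p, miR-25-3p and miR-106b-5p (0.23% ± 0.07) spanned 2.41-fold. These clusters were listed after the data had been seen.

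The 3 libraries differed by more than counting error for most abundant miRNAs. Among the 88 with a mean of at least 1000 CPM, the median coefficient of variation (CV, SD over mean) of the share was 15.6%, against 4.33% from counting alone. The CV was more than 5 times the counting CV for 28 of them and below it for 8. The smallest ratios belonged to miR-1839-5p (0.14%, 0.14% and 0.13%; ratio 0.30), miR-30e-3p (0.46), miR-92b-3p (0.52), miR-298-5p (0.75) and miR-151-5p (0.77). These 5 differed at most 1.13-fold between libraries. let-7f-5p, although counted with 6716 or more reads in each library, also spread no more than counting error (ratio 0.98, chosen after its value was seen).

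**Figure D5:**
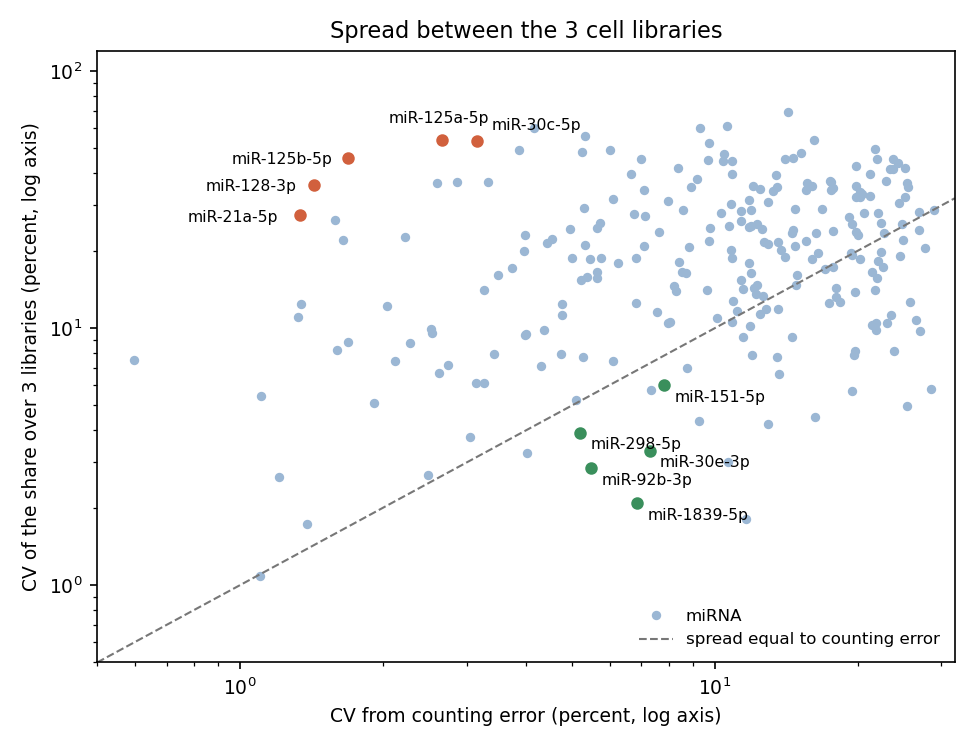
CV of the share over 3 libraries (percent, log y axis) against the CV that counting error alone gives (percent, log x axis) for the 250 miRNAs. Orange points are the 5 largest and green points the 5 smallest ratios of the CVs among miRNAs of at least 1000 CPM, and the dashed line marks a ratio of 1.

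The largest ratio was that of miR-125b-5p, at 1.17%, 3.22% and 2.34% of counts (ratio 27.2). miR-128-3p followed with a ratio of 25.2 and a 1.99-fold range, then miR-21a-5p (20.5). miR-125a-5p had 0.41%, 1.38% and 0.91% (ratio 20.3), and miR-30c-5p 0.27%, 0.96% and 0.71% (ratio 17.02). For miR-125b-5p, miR-125a-5p and miR-30c-5p replicate 1 was lowest and replicate 2 highest, while miR-128-3p ran the other way.

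This contrast between replicates 1 and 2 was common to the widest ranges. Of the 88 miRNAs, 13 ranged at least 2-fold, and these 13 were chosen after their values were seen. In 8 of them, miR-30c-5p, miR-125a-5p, miR-125b-5p, miR-30b-5p, miR-384-3p, miR-19b-3p, miR-16-5p and miR-124-3p, replicate 1 was lowest and replicate 2 highest. In 4, miR-532-5p (0.62%, 0.20% and 0.28%), miR-344-3p, miR-5099 and let-7d-3p, replicate 1 was highest and replicate 2 lowest. miR-146a-5p was the exception, with replicate 3 highest. Replicate 3, the deepest library, was the middle one in 12 of the 13.

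Some relatives in sequence moved together across libraries, and some neighbours in the genome did not. The log2 ratio of replicate 1 to the mean of replicates 2 and 3 was -1.25 for miR-125b-5p and -1.50 for miR-125a-5p, which have the same seed and lie in different clusters. In the cluster of miR-125a, miR-99b-5p stood at 0.22 and let-7e-5p at -0.29, and these 2 ranged 1.204-fold and 1.23-fold against 3.40-fold for miR-125a-5p. miR-19a-3p and miR-19b-3p, which differ at 1 of 23 bases, stood at -0.998 and -1.07, and the rest of their cluster was also lower in replicate 1, with miR-17-5p at -0.75, miR-18a-5p and miR-20a-5p at -0.56 and miR-92a-3p at -0.22. Within the miR-30 family, miR-30c-5p (-1.60) and miR-30b-5p (-1.18) separated from miR-30a-5p (0.26), miR-30d-5p (0.09) and miR-30e-5p (-0.04). These pairs were picked with their values known. The labels name no batch for the 3 libraries, and what set the replicates apart was not tested.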

How the data were processed

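Small RNA of 15 to 200 nt was read for 51 cycles after ligation of adapters with 4 random bases and 14 PCR cycles, per the labels' protocols. For each sample the authors deposited a table of raw counts by mature miRNA, without scaling. The submitters' processing notes name the build NCBIM37 (mm9), the aligner Bowtie 0.12.8, the counter featureCounts 1.4.6-p4, the trimmer cutadapt 1.7.1 and, for base call conversion, bcl2fastq 1.8.4. Settings, the miRNA annotation release, the use of strand and of the random bases, and the rule for reads with several matches were not given in the sources used here, so near-identical miRNAs may share or lose reads and PCR copies may be counted.

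Shares were computed per library from the 3 tables of cells (Python 3.11.15, pandas 2.3.3), with group and replicate taken from the labels. As there is a single group, no test between groups was made, and values are means ± SD with n = 3 unless given per library. Exact intervals used scipy 1.17.1. The functions were tested on simulated data. Alternatives used edgeR 4.0.16 and DESeq2 1.42.0 for scaling only. The miRNAs and lists were chosen with earlier results of these data known.

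The named miRNAs were the 20 most abundant, the 4 most abundant of each of 17 lists (only those with a read), the 8 largest shared seeds with 3 members each, and the 10 most abundant, 5 most balanced and 5 most one-sided hairpins. The 5 largest and 5 smallest ratios of CV to counting CV and the 3 miRNAs on each side of the limit of 10 reads were added. Others belong to a list, family or cluster given as a group, or were picked with values known, as stated beside them.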

Additional observations from a re-analysis of the deposited data

How the results depend on the processing

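No paired analysis was possible because only the cell libraries are described and no result comes from a test. The number of miRNAs in the repertoire was 294 with at least 5 reads in every library, 196 with at least 20, 293 with a mean of at least 50 CPM, 239 after thinning to the smallest total, and 449 with any read in every library. Leaving out 1 library gave 251 to 265. With the total taken without miR-9-5p, shares of the other miRNAs rose by construction. let-7 then held 26.0%, miR-181 9.90%, miR-99 and miR-100 4.00%, the oligodendrocyte list 4.72% and the neuron list 7.30%. The 10 most abundant fell from 53.5% to 46.3% and the neural progenitor list from 22.3% to 5.35%, since both had included miR-9-5p. The miR-125 share moved by less than its SD. Adding miR-30b-5p and miR-30d-5p by name, chosen after seeing the data, took the miR-30 seed with miR-384-5p to 5.21%. A minimum of 300 reads gave 94 hairpins, 56 with the larger arm on 5p, and hairpins without a copy number in their names gave 43 and 28. Scaling by TMM or by DESeq2 size factors moved no share by as much as its SD. Totals after scaling stayed close to the raw ones (TMM factors 0.966, 0.994 and 1.04), so mean shares had little room to move. This covered the 20 most abundant miRNAs, the let-7, miR-181, miR-99 and miR-125 seeds, and the oligodendrocyte, neuron, neural progenitor and myeloid lists. Keeping 1 entry per mature sequence left all of these shares unchanged to the digits kept, so it did not test them. Pooling reads at these depths, or leaving out 1 of 3 libraries, moved no share by its SD either, but could not have done so whatever the shares were. Those settings were therefore no check of the shares against their SD. Without replicate 1, 2 or 3, miR-9-5p held 17.3 to 18.6% and miR-125 2.46 to 3.99%, and 19 of the 20 most abundant stayed among the 20. Depth limits the rarest members, whose 10 reads carry wide counting intervals, and the miRNAs at 0, for which a count of 0 allows up to 14.8 to 23.6 CPM.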
